A study of Rattus norvegicus with 50 samples.

Results

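The genes described here were those most enriched in the cortex over the medulla of the lean rat kidney, 68 of the 32545 Ensembl gene IDs in the deposited table. They were chosen by their values in the lean libraries alone: the mean of log2(FPKM + 0.5) had to be at least 2 higher in the 5 lean vehicle cortex libraries than in the 5 lean vehicle medulla libraries, and the mean level in lean cortex at least 2 FPKM (fragments per unit of transcript length and of library size). Their behaviour was then followed in the 40 libraries of obese rats, which took no part in the choice. All animals were ZSF1 rats, a strain used as a model of diabetic kidney disease in which the obese animals lack a working leptin receptor. Kidney cortex and kidney medulla were each sampled in 5 groups of 5 libraries: lean rats on vehicle, obese rats on vehicle, obese rats on enalapril at 10 mpk (spelled Enalpril in the labels), and obese rats on MK-8722 at 1 mpk or at 10 mpk. Enalapril inhibits the angiotensin-converting enzyme, and MK-8722 activates AMP-activated protein kinase (AMPK). Treatment lasted 28 weeks in every group by the labels, which also give an age of 20 weeks for every sample. The dose unit mpk is printed as the labels have it. No lean group received a drug. The study asked how activation of AMPK bears on kidney function in diabetic nephropathy. RNA came from flash-frozen kidney as stranded total RNA after ribosomal RNA removal. The labels do not say whether the libraries of a group, or the cortex and medulla libraries with the same number, came from separate or the same animals, so the p-values below measure the spread between libraries.

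The renal cortex holds the glomeruli and most of the proximal tubule, whose brush border takes up filtered glucose, amino acids, phosphate and small proteins and whose cells burn fatty acids and make glucose. The juxtaglomerular cells that release renin also lie in the cortex. The medulla is built from the loops of Henle, the collecting ducts and the vasa recta, and its outer stripe still contains straight proximal tubule, so many transcripts of the cortex are present in medulla at a lower level. The table pairs its IDs with no gene names and 0 of them matched the reference gene table, so each gene is reported by ID, no cell type or pathway is assigned to any of them, and the labelled tissues could not be checked against marker genes.

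In lean rats the 68 IDs were higher in cortex than in medulla by 2.03 to 3.58 on the log2(FPKM + 0.5) scale, with a median of 2.36. These differences are what chose the IDs and are given as a description. ENSRNOG00000007456 had the largest, at 3.58, with 134, 106, 129.7, 154 and 143 FPKM in lean cortex against 14.6, 4.42, 12.5, 6.68 and 24.1 in lean medulla (here and below, values run in the order of the replicate numbers in the labels). ENSRNOG00000032857 followed at 3.34. At the threshold, ENSRNOG00000011504 (379 against 93.7 FPKM) and ENSRNOG00000024651 (4.99 against 0.864 FPKM) lay just inside, both at 2.03. ENSRNOG00000018215 (531 against 135 FPKM) and ENSRNOG00000013014 (113 against 28.5 FPKM) lay just outside, at 2.00 (below 2 before rounding) and 1.99.

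The levels of the 68 IDs in lean cortex ran from 3.19 to 4167 FPKM with a median of 34.3. The group held 17 IDs above 100 FPKM and 9 below 10 FPKM. The most abundant, ENSRNOG00000052564, had 4167 FPKM on average in lean cortex and ran from 2431 to 3676 FPKM in obese cortex on vehicle, against 527 to 657 in obese medulla on vehicle. Together they made up between 0.741% and 1.35% of the summed FPKM of a cortex library and between 0.110% and 0.348% of that of a medulla library.

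Library depth can be judged only relatively, because the table holds no counts. Steps between low values gave relative depths from 0.657 to 1.43 over the 50 libraries. The lean cortex libraries averaged 1.27, the obese cortex libraries 0.959 on vehicle, 1.17 on enalapril, 0.995 on 1 mpk MK-8722 and 1.26 on 10 mpk MK-8722. The medulla libraries averaged 1.06 in lean rats, and 0.794, 0.834, 0.864 and 0.814 in the obese groups in the same order. Depth thus moved with the groups and with the tissue. The library numbers in the table's headers fall into a lower and a higher range. All medulla libraries were in the lower range, whereas 8 cortex libraries were in the higher one, 3 of them in the 10 mpk MK-8722 group and 1 in each of the other obese groups. The FPKM scale also moved with the groups: the median over all tested genes was -0.18 for enalapril against vehicle and -0.19 for 10 mpk MK-8722 against vehicle in obese cortex, and close to 0.00 (0.02 and 0.01) after each library was rescaled to a common median ratio. Changes of the 68 IDs are therefore read beside the median of all tested genes.

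The mean level of the 68 IDs separated the tissues in every group. It was between 4.62 and 5.59 in the 25 cortex libraries and between 1.81 and 3.61 in the 25 medulla libraries. Within cortex, the mean of log2(FPKM + 0.5) was 5.48 ± 0.0943 in lean rats, 5.11 ± 0.236 in obese rats on vehicle, 5.33 ± 0.0941 on enalapril, 4.97 ± 0.143 on 1 mpk MK-8722 and 5.08 ± 0.323 on 10 mpk MK-8722 (SD, n = 5). The obese cortex groups overlapped one another on this mean except that the enalapril libraries, from 5.18 to 5.43, all lay above the 1 mpk MK-8722 libraries, from 4.80 to 5.09. Within medulla it was 3.06 ± 0.343 in lean rats, 2.82 ± 0.104 on vehicle, 3.13 ± 0.331 on enalapril, 2.84 ± 0.419 on 1 mpk MK-8722 and 2.50 ± 0.634 on 10 mpk MK-8722, and all groups overlapped. In bulk tissue, fewer cells of a type and less RNA per cell cannot be told apart.

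**Figure D1:**
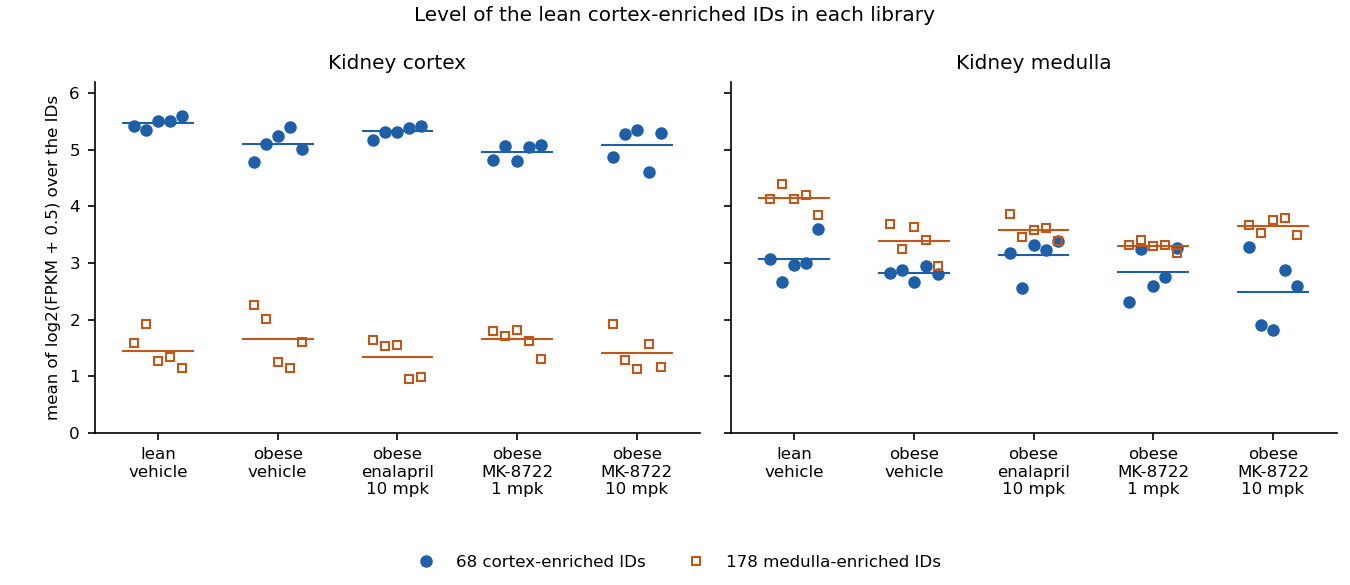
Mean level of the 68 cortex-enriched IDs (filled circles) and of the 178 IDs found by the mirrored rule in medulla (open squares) in each of the 50 libraries, as the mean of log2(FPKM + 0.5) over the IDs, by group, with cortex on the left and medulla on the right. Horizontal lines are group means over 5 libraries. The 68 IDs sit between 4.62 and 5.59 in cortex and spread most widely in the medulla of rats on 10 mpk MK-8722, from 1.81 to 3.29.

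The libraries of some groups stood apart on this level. In the medulla of rats on 10 mpk MK-8722, replicates 1, 2, 3, 5 and 6 had mean levels of 3.29, 1.90, 1.81, 2.89 and 2.59. Replicate 1 exceeded the group mean for 66 of the 68 IDs, replicate 2 for 7 and replicate 3 for 1. The 178 IDs chosen in the same way for medulla over cortex were nearly level across these 5 libraries, at 3.68, 3.53, 3.76, 3.80 and 3.49. In the cortex of obese rats on vehicle, replicates 1, 2, 3, 5 and 6 had mean levels of 4.78, 5.11, 5.25, 5.40 and 5.01, and the medulla-enriched IDs were highest in replicate 1 and replicate 2 (2.26 and 2.01) and lowest in replicate 5 (1.15). How much medulla or cortex tissue each library held was not tested.

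This spread was also seen ID by ID. The median SD of the 68 IDs between the libraries of a group was 0.137 in lean cortex, where the median of all 14485 genes tested across both tissues was 0.138. In lean medulla it was already 0.342 against 0.162, and in obese medulla 0.243 against 0.174 on vehicle, 0.386 against 0.21 on enalapril, 0.423 against 0.183 on 1 mpk and 0.669 against 0.232 on 10 mpk MK-8722. In obese cortex it was 0.292 against 0.218 on vehicle, 0.168 against 0.151 on enalapril, 0.209 against 0.182 on 1 mpk and 0.368 against 0.222 on 10 mpk MK-8722.

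In all 4 obese groups the enrichment in cortex was found again. Tests were made with limma on log2(FPKM + 0.5) over all genes with at least 1 FPKM in at least 5 libraries, and an ID is called when its Benjamini-Hochberg adjusted p over all tested genes was below 0.05. All 68 IDs entered the tissue comparisons, 6 of them only through their level in cortex, since they did not pass the same filter in the obese medulla libraries alone. In obese rats on vehicle 67 of the 68 were called higher in cortex, where 11.1% of all tested genes were. On enalapril 68 were called higher (9.48% of all genes), on 1 mpk MK-8722 66 (10.6%) and on 10 mpk MK-8722 67 (10.6%). None was called lower, and 66 of the 68 were called higher in all 4 groups. When 1 library was left out, the counts stayed between 66 and 68.

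The size of the tissue difference varied among the IDs. Its median over the 68 was 2.30 on vehicle, 2.18 on enalapril, 2.11 on 1 mpk MK-8722 and 2.53 on 10 mpk MK-8722, beside medians over all tested genes from -0.24 to -0.12. With relative depth as a term these medians were 2.21, 2.06, 2.03 and 2.35, beside medians over all genes from -0.19 to -0.09. The difference was at least 2 for 46, 47, 43 and 56 of the 68 in these groups. In 67, 67, 65 and 67 of the 68 the 5 cortex values all lay above the 5 medulla values. The share of all tested genes for which this held was not computed, so these counts have no background beside them. Applied to each obese group, the rule itself found 66, 62, 59 and 90 IDs, of which 46, 47, 43 and 56 were among the 68. The shared IDs were 67.6%, 69.1%, 63.2% and 82.4% of the 68 and 69.7%, 75.8%, 72.9% and 62.2% of the list of each obese group. Across the 68 IDs, the lean difference and the difference in obese rats on vehicle had a Pearson r of 0.576 and a Spearman rho of 0.623. This is a description across genes, all measured in the same lean and the same obese libraries, over a range narrowed by the choice of the IDs.

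**Figure D2:**
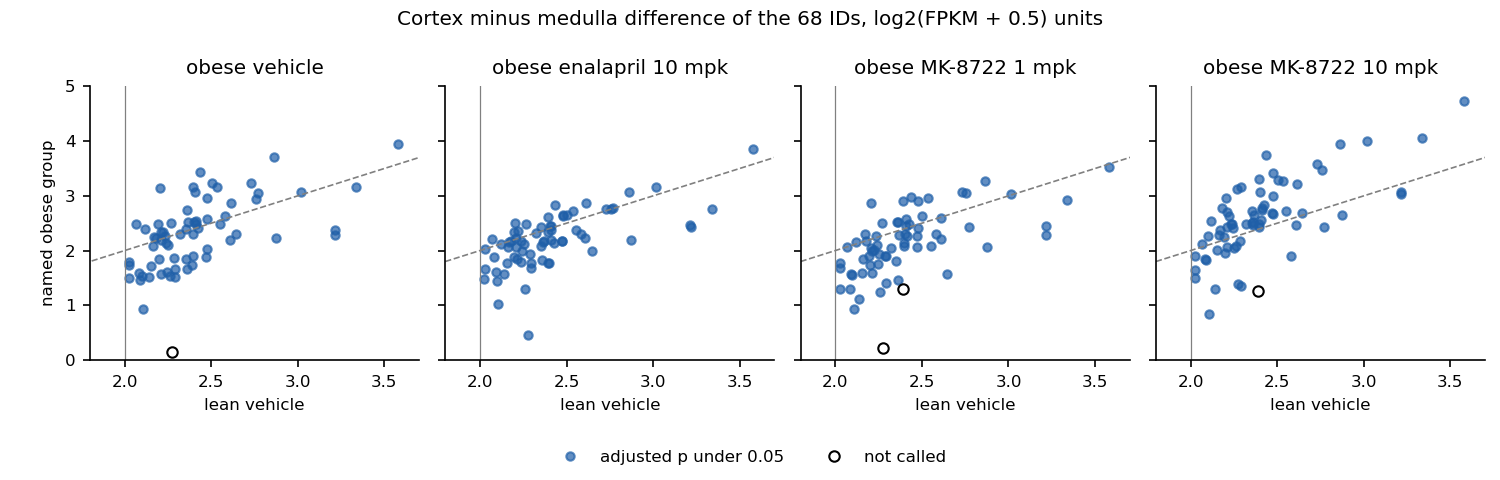
Cortex minus medulla difference of each of the 68 IDs on the log2(FPKM + 0.5) scale in lean rats (horizontal axis, which chose the IDs at 2 or more) and in each obese group (vertical axis, 1 panel a group). Filled points are IDs called in that obese group, open points are IDs not called, and the dashed line marks equal differences. ENSRNOG00000010635 is the open point at 0.14 on vehicle and at 0.21 on 1 mpk MK-8722.

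ENSRNOG00000007456 kept the largest difference in obese rats on vehicle. It had 83.0, 109.6, 101, 126 and 107 FPKM in cortex against 6.60, 6.66, 4.59, 8.04 and 6.04 in medulla. The groups did not overlap, and the log2 difference was 3.95 ± 0.484 (SE, limma adjusted p = 5.94e-08). ENSRNOG00000007799 came next at 3.71 ± 0.453 (limma adjusted p = 5.62e-08), with 75.2 ± 19.3 FPKM in cortex and 5.24 ± 1.20 in medulla (SD, n = 5).

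ENSRNOG00000010635 had no called tissue difference in obese rats on vehicle. In lean rats it had 43.3, 37.0, 41.8, 40.5 and 52.4 FPKM in cortex and 8.03, 7.10, 6.65, 9.01 and 12.3 in medulla. In obese rats on vehicle it had 33.2, 33.0, 24.0, 29.0 and 24.7 FPKM in cortex and 20.1, 27.2, 20.6, 26.7 and 38.4 in medulla. The cortex values lay below the lean ones, the medulla values above them, and the tissues overlapped. The difference was 0.14 ± 0.192 (SE, limma adjusted p = 0.582) on vehicle and 0.21 (adjusted p = 0.423) on 1 mpk MK-8722, against 0.46 (adjusted p = 0.0464) on enalapril and 1.38 (adjusted p = 3.65e-07) on 10 mpk MK-8722. The next smallest difference on vehicle was that of ENSRNOG00000015416, at 0.94 ± 0.109 (limma adjusted p = 1.31e-08). Its medulla level was 6.10 ± 1.53 FPKM in lean rats and 19.2 ± 3.37 in obese rats on vehicle, beside 27.5 ± 1.91 and 36.8 ± 3.38 in cortex (SD, n = 5). The other ID not called in every group was ENSRNOG00000002937, at 1.29 on 1 mpk MK-8722 (limma adjusted p = 0.0664) and 1.27 on 10 mpk MK-8722 (adjusted p = 0.0534).

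In obese cortex, enalapril left most of the 68 IDs near the vehicle level and raised a single one several-fold. ENSRNOG00000002937 had 6.59, 5.88, 6.09, 8.36 and 6.04 FPKM on vehicle and 35.8, 35.1, 61.8, 62.5 and 46.0 on enalapril. Every enalapril library lay above every vehicle library and above the lean ones, which ran from 7.42 to 10.8 FPKM. The log2 difference was 2.75 ± 0.531 (SE, limma adjusted p = 0.0342).

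Of the 68 IDs tested, 2 were called higher with enalapril, where 0.141% of all tested genes were, and 1 was called lower, where 3.8% were. The other called IDs, named after their values were seen, were ENSRNOG00000006867 at 0.50 ± 0.137 and ENSRNOG00000010635 at -0.51 ± 0.142 (SE, limma adjusted p = 0.0481 for both). Among the 68, 53 had a positive difference, with a median of 0.19 beside -0.18 over all tested genes. After rescaling, 65 were positive with a median of 0.40 beside 0.02. Then 1 was called higher, where 14 of 13468 genes were, and 0 lower, where 20 were. With relative depth as a term 41 were positive with a median of 0.03 beside -0.09, and without vehicle replicate 1 the median was 0.10 beside -0.16. The calls depended on which libraries were in the fit, among the 68 and over all tested genes. Over all genes, 1 was called higher and 1 lower without vehicle replicate 1, and 122 higher and 3486 lower without vehicle replicate 5. The difference of ENSRNOG00000002937 stayed between 2.64 and 2.85 when 1 library was left out. The count among the 68 fell to 0 without vehicle replicate 1, 2 or 6 or without enalapril replicate 2, 4, 6 or 7. The limma adjusted p for ENSRNOG00000002937 was then between 0.0621 and 0.113. The count rose to 5 without vehicle replicate 3 and to 14 without vehicle replicate 5. With relative depth as a term it was 0 (adjusted p for ENSRNOG00000002937 = 0.286), and within the lower range of library numbers it was 12, all higher.

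At 1 mpk, MK-8722 changed none of the 68 IDs in obese cortex past the threshold of the limma test, where 0.0% of all tested genes were called. At an unadjusted limma p below 0.05, 3 of the 68 were lower and 0 higher. The share of all tested genes at that threshold was not computed. Of the 68, 56 were negative, with a median of -0.13 beside 0.01 over all genes. The median was -0.06 beside -0.03 (23 positive) without vehicle replicate 5, -0.08 beside 0.01 without 1 mpk replicate 4 and -0.22 beside 0.03 without vehicle replicate 1. The most negative difference was that of ENSRNOG00000002937, which had 4.61, 6.43, 2.13, 1.16 and 4.70 FPKM, and differed from vehicle by -0.89 ± 0.531 (SE, limma adjusted p = 0.9998). Its highest value lay within the vehicle range and the others below it.

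At 10 mpk, MK-8722 raised some of the 68 IDs in obese cortex and lowered others. ENSRNOG00000032857 had 214, 293, 297, 385 and 246 FPKM on vehicle and 767, 1201, 1234, 476 and 1308 on 10 mpk MK-8722. All 5 treated libraries lay above all vehicle libraries, and 4 of them above all lean cortex libraries, which ran from 497 to 653. The log2 difference was 1.73 ± 0.225 (SE, limma adjusted p = 0.000116). ENSRNOG00000013532, a far less abundant ID, had 1.40, 3.45, 3.24, 2.64 and 2.27 FPKM on vehicle and 9.58, 11.2, 14.1, 5.40 and 11.5 on 10 mpk MK-8722. Again the groups did not overlap, and the log2 difference was 1.79 ± 0.252 (limma adjusted p = 0.000224). For both IDs replicate 6 was the lowest of the treated libraries. In medulla, ENSRNOG00000032857 had 231, 24.6, 13.5, 141 and 48.0 FPKM on 10 mpk MK-8722 against 38.4, 33.2, 23.3, 35.1 and 27.9 on vehicle, with treated values on both sides of the vehicle values (0.83 ± 0.633, limma adjusted p = 0.359).

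ENSRNOG00000015416 moved the other way. It had 37.8, 37.7, 40.3, 31.2 and 37.2 FPKM on vehicle and 21.0, 21.5, 20.5, 21.5 and 22.5 on 10 mpk MK-8722. The treated values were nearly equal and all below the vehicle values and the lean ones, which ran from 24.7 to 29.3, with a log2 difference of -0.77 ± 0.0941 (SE, limma adjusted p = 5.14e-05). ENSRNOG00000000245 had 5.61, 5.32, 8.95, 8.47 and 5.79 FPKM on vehicle and 3.64, 5.01, 4.35, 2.96 and 3.66 on 10 mpk MK-8722, without overlap. Its log2 difference was -0.72 ± 0.153 (limma adjusted p = 0.00448), and it was not called after rescaling (adjusted p = 0.127) or within the lower range of library numbers (adjusted p = 0.122).

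In all, 8 of the 68 IDs were called higher with 10 mpk MK-8722 than with vehicle (11.8%, where 1.72% of all tested genes were), with log2 differences from 0.58 to 1.79. A further 7 were called lower (10.3%, where 19.1% of all genes were), from -0.85 to -0.37. Of the 8, 3 were above 100 FPKM in lean cortex and 2 below 10 FPKM. None of the 7 was above 100 FPKM and 1 was below 10 FPKM. The split depended on the scaling. After rescaling, 9 were called higher, where 466 of 13468 genes were, and 2 lower, where 318 were. The median over the 68 IDs went from -0.11 to 0.11, beside medians over all genes of -0.19 and 0.01. With relative depth as a term the median was -0.27 beside -0.07, below that of all genes, with 5 called higher and 5 lower. Without MK-8722 replicate 6, whose mean level of 4.62 was the lowest of the group, it was 0.03 beside -0.22, with 10 called higher and 5 lower. It was -0.03 beside -0.24 without vehicle replicate 5, -0.19 beside -0.18 without vehicle replicate 1, and -0.17 beside -0.16 and -0.17 beside -0.18 without MK-8722 replicates 5 and 7. The count was between 11 and 16 when 1 library was left out, 18 with the replicate number as a block, 6 within the lower range of library numbers (which leaves 2 treated libraries) and 13 in a fit with a term for that range. It was 9 when only these 2 groups were fitted.

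The doses of MK-8722 differed in obese cortex for the same named IDs, in a comparison that shares the 10 mpk libraries with the preceding one. ENSRNOG00000032857 had 291, 419.8, 252, 309 and 316 FPKM at 1 mpk, all below the 10 mpk values, and was higher at 10 mpk by 1.58 ± 0.225 (SE, limma adjusted p = 0.00057). ENSRNOG00000013532 had 3.16 ± 1.11 FPKM at 1 mpk and 10.4 ± 3.22 at 10 mpk (SD, n = 5), a log2 difference of 1.57 (limma adjusted p = 0.00129). ENSRNOG00000015416 had 33.7 ± 4.64 FPKM at 1 mpk and 21.4 ± 0.744 at 10 mpk, a log2 difference of -0.63 ± 0.0941 (limma adjusted p = 0.000686).

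Of the 68, 12 were called higher at 10 mpk than at 1 mpk (1.84% of all genes) and 3 lower (21.9% of all genes). The higher ones ran from 0.37 to 1.58 and the lower ones from -0.63 to -0.57. The median over the 68 was 0.06 beside -0.21 over all genes. After rescaling 12 were called higher, where 548 of 13468 genes were, and 1 lower, where 393 were. The rescaled median was 0.29 beside 0.01. The sign of the median was not stable: it was -0.10 beside -0.11 with relative depth as a term, and ran from -0.01 (without 10 mpk replicate 5) to 0.23 (without 10 mpk replicate 6) when 1 library was left out. The 15 calls became 9 without 1 mpk replicate 1 or 10 mpk replicate 5. They became 3 with relative depth as a term, 8 in a fit with a term for the library number range and 5 within the lower range.

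The drugs were also compared with each other at 10 mpk in obese cortex. ENSRNOG00000002937 had 1.59, 4.70, 9.69, 0.389 and 7.78 FPKM on MK-8722 and 35.8, 35.1, 61.8, 62.5 and 46.0 on enalapril. The MK-8722 values were spread widely and were all below the enalapril values, with a log2 difference of -3.63 ± 0.531 (SE, limma adjusted p = 0.000316). ENSRNOG00000008534 had 3.15, 5.23, 6.95, 1.97 and 5.03 FPKM on MK-8722 and 7.84, 8.23, 10.1, 11.9 and 12.6 on enalapril. These groups did not overlap, and the log2 difference was -1.18 ± 0.235 (limma adjusted p = 0.00338). ENSRNOG00000013532 and ENSRNOG00000032857 were higher on MK-8722 by 1.97 ± 0.252 (limma adjusted p = 4.9e-05) and 1.35 ± 0.225 (limma adjusted p = 0.000651).

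In this comparison 6 of the 68 IDs were called higher on MK-8722 (3.06% of all genes) and 14 lower (4.58% of all genes). The median was -0.30 beside -0.01 over all genes, and 52 of the 68 were negative. Without MK-8722 replicate 6 the median was -0.19 beside -0.04. The count was between 17 and 23 when 1 library was left out and 6 (2 higher and 4 lower) within the lower range of library numbers. It was 26 with relative depth as a term.

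**Figure D3:**
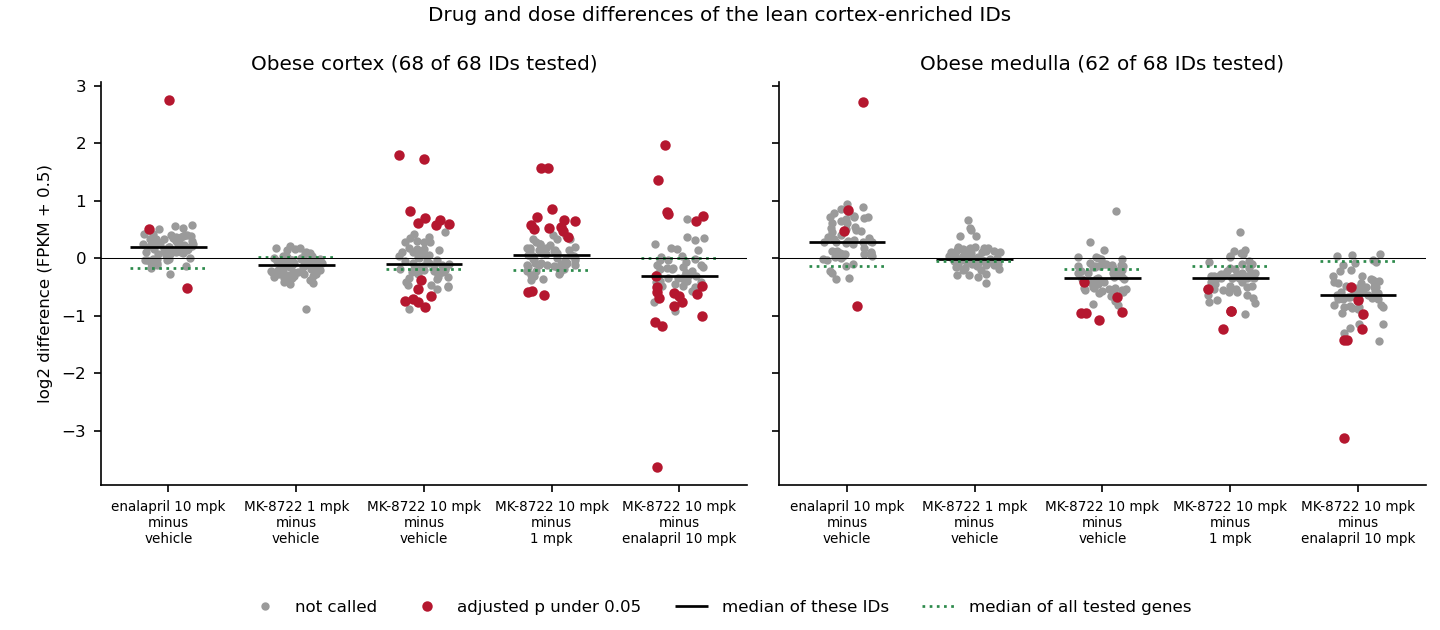
Log2 differences of the cortex-enriched IDs for each drug or dose comparison in obese cortex (left, 68 IDs tested) and obese medulla (right, 62 tested), on the FPKM + 0.5 scale, 1 point an ID. Red points are IDs called, solid lines are medians of these IDs and dotted lines medians of all tested genes. The highest point for enalapril against vehicle, at 2.75 in cortex and 2.71 in medulla, and the lowest for MK-8722 against enalapril, at -3.63 and -3.12, are ENSRNOG00000002937.

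The group means of the 68 IDs spanned a limited range in obese cortex. The distance from the lowest to the highest of the 4 obese group means had a median of 0.54 on the log2 scale, was below 1 for 62 of the 68, and reached 3.63 for ENSRNOG00000002937. The highest mean was in the enalapril group for 44 IDs, in the 10 mpk MK-8722 group for 16, in the vehicle group for 7 and in the 1 mpk MK-8722 group for 1. The lowest was in the 1 mpk MK-8722 group for 29, in the 10 mpk MK-8722 group for 28, in the vehicle group for 6 and in the enalapril group for 5. These are orders of means without a test.

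In obese medulla, 62 of the 68 IDs passed the filter on low values. The 6 left out had at least 1 FPKM in fewer than 5 of the 20 obese medulla libraries, and the counts below are over the 62. With enalapril, ENSRNOG00000002937 rose in medulla as it did in cortex. It had 1.64, 1.60, 1.37, 2.61 and 1.09 FPKM on vehicle and 12.0, 4.74, 16.6, 25.1 and 16.9 on enalapril, without overlap, and the log2 difference was 2.71 ± 0.515 (SE, limma adjusted p = 0.032). ENSRNOG00000010635 had 26.6 ± 7.38 FPKM on vehicle and 13.7, 19.9, 14.3, 10.4 and 14.6 on enalapril. Every enalapril value was below the lowest vehicle value of 20.1, with a log2 difference of -0.83 ± 0.22 (limma adjusted p = 0.0405).

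With enalapril, 3 of the 62 were called higher (0.532% of all genes) and 1 lower (5.03% of all genes). ENSRNOG00000019120, named after its values were seen, rose by 0.84 ± 0.228 (SE, limma adjusted p = 0.0421). Of the 62, 53 were positive, with a median of 0.29 beside -0.14 over all genes. After rescaling 56 of 61 were positive, with a median of 0.42 beside 0.00. Then 2 were called higher, where 40 of 13830 genes were, and 0 lower, where 41 were. These calls also depended on which libraries were in the fit. When 1 library was left out, the log2 difference of ENSRNOG00000002937 stayed between 2.49 and 3.06. That of ENSRNOG00000010635 stayed between -0.95 and -0.69. The count was 0 without vehicle replicate 4, 6 or 7 or enalapril replicate 2, 5 or 7, 1 without enalapril replicate 6 and 2 without vehicle replicate 3. The adjusted p without those libraries was between 0.0512 and 0.125 for ENSRNOG00000002937 and between 0.0666 and 0.138 for ENSRNOG00000010635, whose call was also lost without enalapril replicate 6. In the enalapril medulla group, replicate 3 had the lowest mean level of the 68 IDs, at 2.56, where the others ran from 3.17 to 3.38. Its ENSRNOG00000002937 value of 4.74 FPKM was the lowest of the group as well.

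At 1 mpk, MK-8722 gave 0 calls among the 62 IDs in medulla by limma, where 0.0% of all genes were called. At an unadjusted p below 0.05 it gave 1 ID, higher, and the share of all genes at that threshold was not computed. The median was -0.01 beside -0.05 over all genes, and it ran from -0.10 to 0.12 when 1 library was left out (without 1 mpk replicate 7 and replicate 1).

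At 10 mpk, MK-8722 lowered a few of the IDs in medulla and raised none past the threshold. ENSRNOG00000015416 had 17.3, 17.4, 16.0, 20.8 and 24.3 FPKM on vehicle and 13.4, 11.6, 9.29, 10.8 and 14.3 on MK-8722. The groups did not overlap, and the log2 difference was -0.67 ± 0.121 (SE, limma adjusted p = 0.0041). ENSRNOG00000012428 had 17.8 ± 1.25 FPKM on vehicle and 13.4 ± 2.05 on MK-8722 (SD, n = 5), a log2 difference of -0.41 ± 0.121 (limma adjusted p = 0.0325). Its call was lost without vehicle replicate 4, 6 or 7 or MK-8722 replicate 3 or 5 (adjusted p from 0.071 to 0.0836) and after rescaling (-0.21, adjusted p = 0.42), and in 4 of 7 alternative settings in all.

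Against vehicle, 6 of the 62 IDs were called lower at 10 mpk, with log2 differences from -1.08 to -0.41, where 12.5% of all tested genes were called lower. On this scale and in this fit the share of IDs called was thus below that of all genes. Of the 62, 56 were negative, with a median of -0.35 beside -0.18 over all genes. This distance rested on single libraries: the median was -0.14 beside -0.19 without MK-8722 replicate 3 (21 positive), -0.21 beside -0.20 without replicate 2 and -0.54 beside -0.17 without replicate 1. After rescaling 42 of 61 were negative, the median was -0.15 beside 0.00, and 4 were called lower, where 193 of 13830 genes were. The count was 3 of 58 when only these 2 groups were fitted, where 404 of 13561 genes were called lower. In both of these settings the share of IDs called was above that of all genes.

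Between the doses, 4 of the 62 were called lower at 10 mpk than at 1 mpk in medulla (1.97% of all genes) and 0 higher. ENSRNOG00000045991 had 4.80, 7.63, 4.76, 4.87 and 7.04 FPKM at 1 mpk and 4.61, 0.576, 1.56, 2.29 and 3.57 at 10 mpk, with no overlap and a log2 difference of -1.23 ± 0.327 (SE, limma adjusted p = 0.0495). ENSRNOG00000015416 was lower by -0.54 ± 0.121 (limma adjusted p = 0.0302). The count fell to 0 without 1 mpk replicate 1, 4 or 7 or 10 mpk replicate 3 or 5, and to 1 without 1 mpk replicate 6. Without these 6 libraries, each in turn, ENSRNOG00000015416 had an adjusted p between 0.0524 and 0.0975. The call of ENSRNOG00000045991 was lost without any of the 5 libraries at 1 mpk or replicate 2, 3 or 5 at 10 mpk (adjusted p from 0.0537 to 0.117). It was also lost in 6 of 7 alternative settings, among them the pseudocount of 0.1 (limma adjusted p = 0.0552) and rescaling (adjusted p = 0.102). That of ENSRNOG00000015416 was lost in 4 of 7. After rescaling 1 ID was called lower, where 82 of 13830 genes were.

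Between the drugs at 10 mpk in medulla, 7 of the 62 were called lower on MK-8722 than on enalapril (0.987% of all genes) and 0 higher, and 59 of the 62 were negative. The median was -0.64 beside -0.05 over all genes. ENSRNOG00000019120 had 17.2, 6.76, 7.87, 8.67 and 14.5 FPKM on MK-8722 and 27.9, 17.8, 33.5, 34.4 and 32.6 on enalapril. These values did not overlap, and the log2 difference was -1.42 ± 0.228 (SE, limma adjusted p = 0.00299). ENSRNOG00000006867 had 3.71, 3.31, 3.06, 3.30 and 3.49 FPKM on MK-8722 and 6.05, 4.50, 7.08, 6.77 and 5.46 on enalapril, also without overlap, at -0.73 ± 0.129 (limma adjusted p = 0.00522). The count of 7 became 18 without MK-8722 replicate 1, the library with the highest level of the 68 IDs in its group. It became 3 without enalapril replicate 5 or 7 or MK-8722 replicate 2 or 3, and 4 without enalapril replicate 6. After rescaling it was 4, all lower, where 70 of 13830 genes were.

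Whether a drug acted differently on the IDs in the tissues was tested as an interaction, the drug difference in cortex minus that in medulla, over all 40 obese libraries. For enalapril 0 of the 68 were called by limma (0.0069% of all genes) and for 1 mpk MK-8722 0 (0.0% of all genes). In both, 0 of the 68 had an unadjusted p below 0.05, a threshold at which all genes were not counted. Over the 68, the median was -0.05 beside -0.06 over all genes for enalapril and -0.17 beside 0.06 for 1 mpk MK-8722. For 10 mpk MK-8722 it was 0.29 beside -0.01, with 54 positive and 14 negative. It ran from 0.11 to 0.49 when 1 library was left out, and was 0.19 beside 0.02 with relative depth as a term. At an unadjusted limma p below 0.05, 9 were higher and 0 lower for 10 mpk. After adjustment 1 ID was called there, higher (0.0967% of all genes). This was ENSRNOG00000010635, with an interaction of 1.24 ± 0.272 (SE, limma adjusted p = 0.0426).

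Its medulla values were 20.1, 27.2, 20.6, 26.7 and 38.4 FPKM on vehicle and 12.4, 20.4, 12.0, 7.97 and 15.6 on 10 mpk MK-8722. Its cortex values were 33.2, 33.0, 24.0, 29.0 and 24.7 on vehicle and 48.0, 28.1, 32.4, 30.9 and 37.8 on 10 mpk MK-8722. The level of ENSRNOG00000010635 fell in medulla (-0.96, limma adjusted p = 0.012) and was not called in cortex (0.28, adjusted p = 0.147). The interaction was not called without vehicle replicate 3, 5 or 6 or MK-8722 replicate 2, 5 or 7 in cortex, nor without vehicle replicate 4, 6 or 7 or MK-8722 replicate 1, 3 or 5 in medulla (adjusted p from 0.0609 to 0.144). Without cortex MK-8722 replicate 6, medulla vehicle replicate 5 or medulla MK-8722 replicate 6, 2 IDs were called. Among the alternative settings its adjusted p reached 0.308, when only the 4 groups concerned were fitted.

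**Figure D4:**
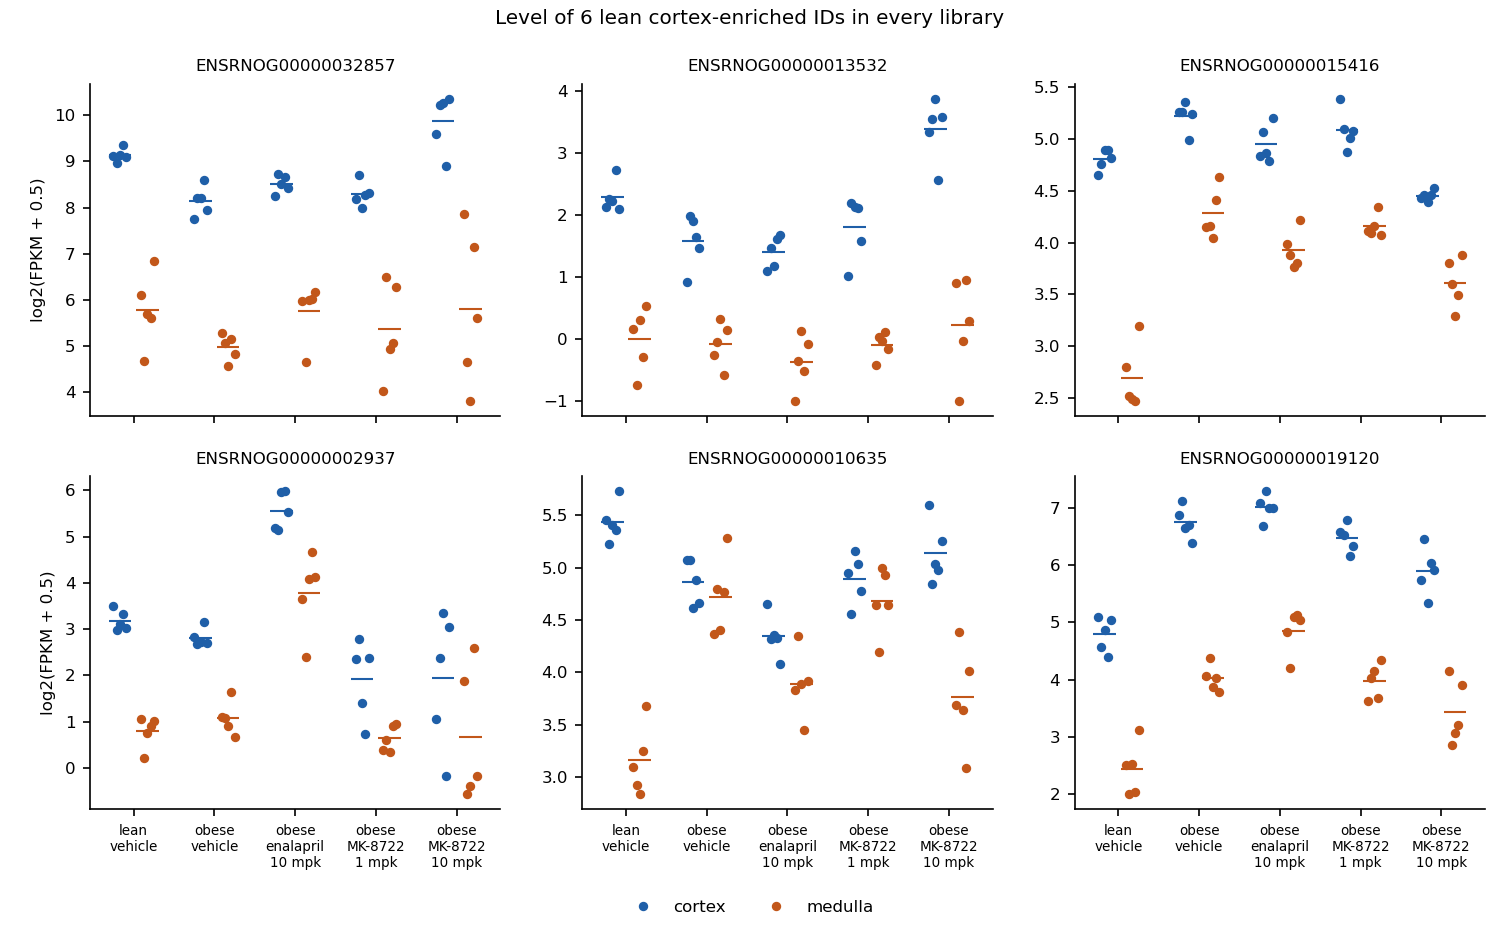
Level of 6 of the cortex-enriched IDs in each library as log2(FPKM + 0.5), by group, with cortex in blue and medulla in orange. Points are libraries and lines group means of 5 libraries. ENSRNOG00000002937 is highest on enalapril in both tissues, ENSRNOG00000032857 and ENSRNOG00000013532 are highest in the cortex of rats on 10 mpk MK-8722, and the tissues overlap for ENSRNOG00000010635 in obese rats on vehicle.

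The obese and lean levels are given side by side without a test, since the lean libraries chose the IDs and so favour high lean cortex and low lean medulla values. In the cortex of obese rats on vehicle 55 of the 68 IDs were below the lean level, with a median difference of -0.38. The corresponding numbers were 51 with -0.23 on enalapril, 59 with -0.55 on 1 mpk MK-8722 and 56 with -0.43 on 10 mpk MK-8722. In medulla 41 were below the lean level on vehicle with a median of -0.25, 32 on enalapril with 0.06, 46 on 1 mpk MK-8722 with -0.27 and 56 on 10 mpk MK-8722 with -0.59.

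The IDs at the ends of that range behaved in opposite ways in cortex. ENSRNOG00000011598 had 5.25, 4.58, 5.41, 4.84 and 6.15 FPKM in lean cortex and 1.08, 1.68, 1.34, 2.47 and 1.56 in obese cortex on vehicle, and was lower by 1.46 on the log2 scale (-1.46). ENSRNOG00000019120 had 33.5, 23.3, 28.8, 20.6 and 32.4 FPKM in lean cortex and 118, 139, 100.4, 104 and 83.5 in obese cortex on vehicle, a difference of 1.96. On 10 mpk MK-8722 it had 53.3, 88.0, 39.9, 65.5 and 60.2 FPKM, above the lean values in all 5 libraries, and the same ID was 1.59 above the lean level in obese medulla on vehicle.

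Across the 13 drug, dose and interaction comparisons, 33 of the 68 IDs were called at least once and 35 in none of them. In cortex, 18 were called in at least 1 comparison of a drug with vehicle. These comparisons share vehicle and 10 mpk MK-8722 libraries, so the calls are not independent of each other. The share of all tested genes called at least once was not computed, so these counts cannot be set against it. For 10 mpk MK-8722 against vehicle in cortex alone, 1.72% of all tested genes were called higher and 19.1% lower.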

How the data were processed

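Per the labels' protocols, libraries were made with a stranded total RNA kit after ribosomal RNA removal. The authors deposited FPKM per Ensembl gene ID. The aligner is not given in the sources used here, nor is the build. Columns were matched to samples by the library number in each sample's description, and 0 columns were left unused. The table is of FPKM and not of counts, so depth was read only relatively: 93.4% of 59935 low values in 5123 genes were whole multiples of a 1-read step within 0.1 reads.

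Tests used limma 3.58.1 in R 4.3.3 with trend and robust moderation on log2(FPKM + 0.5), a scale that understates changes of low genes. Drug and dose comparisons were fitted on the 20 obese libraries of a tissue, and tissue comparisons and interactions on all 40. Genes with at least 1 FPKM in at least 5 libraries of the fit were tested across all genes, and the test was two-sided with Benjamini-Hochberg adjustment at 0.05. The fitting code was tested on simulated data. Tables and figures were made with Python 3.11.15, pandas 2.3.3 and matplotlib 3.10.9.

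The members and lists were chosen with earlier results of these data known. As the IDs have no names here, at most 2 IDs each way were named in a comparison, those called with the largest difference, no overlap between groups and at least 2 FPKM in the higher group; others are marked where named. Gene lists, cell type markers and promoter sequences could not be applied to unnamed IDs, and near-identical gene copies cannot be recognised.

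Correlations of the deviations of same-numbered libraries were over 0.1 in every pair (3 pairs each) only for 10 mpk MK-8722 against vehicle in cortex (correlations 0.224 to 0.374) and for cortex against medulla on 10 mpk MK-8722 (0.101 to 0.309). The labels do not say what the numbers mark. The alternatives tried were another pseudocount (0.1), no filter, median-ratio rescaling, lean groups in the fit, only the groups compared, the replicate number as a block, relative depth or library number range as a term, members by a lean difference of at least 3, and leaving out each library. The lower range of library numbers alone was added after seeing the data.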

Additional observations from a re-analysis of the deposited data

Results flagged for a closer look

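In the medulla of obese rats on enalapril, the mean level of the 68 IDs in replicate 3 was 2.56, far below the other 4 libraries of that group (3.17 to 3.38). In all, 50 groups of 5 values were examined in this way: the mean levels of the 10 groups, and values of named IDs in the groups compared. This was the only one with a library so far from the rest. Chance alone gives about 1 in every 20 groups examined, so 1 in 50 is not above that rate. The drug difference of ENSRNOG00000010635 with 10 mpk MK-8722 differed between cortex and medulla by 1.24 on the log2 scale (limma adjusted p = 0.0426), higher in cortex.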

How the results depend on the processing

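None of the called IDs named for the largest difference in a comparison changed direction under any setting run. The direction of the other called IDs was not followed through the settings. Untested medians near 0 did change sign. In cortex that of 10 mpk MK-8722 against vehicle (-0.11) was 0.11 after rescaling, and that of 10 mpk against 1 mpk (0.06) was -0.07 with the block, -0.10 with relative depth and -0.01 with the number range as a term. That of 1 mpk against vehicle in medulla (-0.01) was 0.05 after rescaling. Single libraries turned these as well. At 1 mpk MK-8722 against vehicle and in the interactions of enalapril and 1 mpk MK-8722 the count of calls among the cortex-enriched IDs was 0 in all of them. For the other counts only values over 1.5 times apart from the reported one are given, and the causes were not tested except where fewer IDs or libraries were used. With only the 5 IDs whose lean difference was at least 3, the tissue counts were 5 in each obese group with medians of 3.06 on vehicle, 2.75 on enalapril, 2.93 on 1 mpk and 4.01 on 10 mpk MK-8722. The cortex counts were then 0 for enalapril and 2 for 10 mpk MK-8722 against vehicle, 1 mpk or enalapril, with medians of 0.11 for 1 mpk and 0.35, 0.41 and 0.38 for 10 mpk against vehicle, 1 mpk and enalapril. The medulla counts were 1 for 10 mpk against vehicle and 0 for enalapril and for 10 mpk against 1 mpk or enalapril, and the interaction of 10 mpk had 0 calls with a median of 0.79. After rescaling, enalapril had 1 call and a median of 0.40 in cortex and 2 calls in medulla, 10 mpk against 1 mpk had 1 and against enalapril 4 in medulla, and the mean level became 5.77 in lean cortex, 5.46 in cortex on enalapril and 2.59 in medulla on vehicle. Without the filter the counts were 1 for enalapril in cortex and 0 in medulla, 1 for 10 mpk against 1 mpk in medulla and 0 for the interaction. With only the compared groups they were 9 in cortex and 3 in medulla for 10 mpk against vehicle, 0 against 1 mpk and 3 against enalapril in medulla, and 0 for the interaction. With lean libraries in the fit enalapril had 6 in cortex. With relative depth as a term the counts were 0 for enalapril and 3 for 10 mpk against 1 mpk in cortex, 2 for the latter in medulla and 0 for the interaction, and with the library number range as a term 10 mpk against 1 mpk had 8 in cortex. Within the lower number range, chosen after seeing the data, cortex counts were 12 for enalapril and 6, 5 and 6 for 10 mpk against vehicle, 1 mpk and enalapril. With the replicate number as a block, cortex counts were 22 for enalapril and 38 for 10 mpk against enalapril. Medulla counts with the block were 2 for enalapril and 3, 0 and 3 for 10 mpk against vehicle, 1 mpk and enalapril. The interaction had 0. In the comparisons whose same-numbered libraries all correlated over 0.1 (18 calls for 10 mpk against vehicle in cortex), no count moved by over 1.5 times. Whether the numbers pair samples is not known. Leaving out 1 library gave 0 to 14 for enalapril, 11 to 16, 9 to 21 and 17 to 23 for 10 mpk against vehicle, 1 mpk and enalapril in cortex. In medulla it gave 0 to 6, 4 to 9, 0 to 6 and 3 to 18 in the same order, and 0 to 2 for the interaction. Without counts, absolute depth and the error it sets are unknown.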
